A study of Mus musculus with 12 samples.

Results

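Keratins are the intermediate filament proteins of epithelial cells. The genes described here are the 35 with a numbered Krt symbol among the 32689 genes that the authors kept in their normalized colon table, in 6 colon libraries of total RNA. They were taken by name from that table, and the table itself leaves out genes without counts. The deposited count table, which covers 53801 genes, holds 54 keratin symbols. The 19 symbols outside the colon table had no count in any colon library. Of the 35, 5 were simple epithelial keratins (Krt7, Krt8, Krt18, Krt19 and Krt20), 12 were keratins of stratified squamous epithelium, 11 were keratins of hair, nail and tongue papilla, and 7 belonged to none of these. The mice were C57BL/6 males, 8 weeks old per the study's methods. Those labelled ulcerative colitis (UC) drank 1.5% (wt/vol) dextran sulfate sodium salt (DSS), a sugar polymer that injures the gut lining, for 7 days. Those labelled control drank the same water without DSS, and all were killed on day 8. The colon gave 3 libraries labelled UC (mice 1, 2 and 4) and 3 labelled control (mice 7, 8 and 9), and the whole blood of the same mice gave 3 and 3 more. The study picked the sequenced mice by their disease activity index, a score of weight loss, stool and bleeding, so they are not a random draw of either arm. Colon RNA came from homogenized tissue, in which fewer cells of a type and less RNA per cell cannot be told apart.

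A keratin filament is built from pairs, each of a type I (acidic) and a type II (basic to neutral) chain. Single-layered epithelia such as the lining of the gut use Krt8 with Krt18, Krt19 and, in the more mature surface cells, Krt20. Stratified epithelia replace these as cells move upward: Krt5 with Krt14 in the basal layer, Krt4 with Krt13 above it in wet mucosae such as the oesophagus and anal canal, and Krt1 with Krt10 above it in dry skin. Krt6a, Krt6b, Krt16 and Krt17 are the chains that stratified epithelium adds after wounding. In the mouse genome (GRCm38) 17 of the 18 type I members lie on chromosome 11 and all 17 type II members on chromosome 15. The exception is Krt18, at chr15:102028180-102032027 on the plus strand, 23697 bases beyond the start of its partner Krt8, which lies at chr15:101996698-102004482 on the minus strand.

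Before the keratins are given, the labels need a caveat. The labels state the tissue in 2 fields that contradict each other, of which the tissue characteristic was used. Alas2, the first enzyme of heme synthesis in red cell precursors, ran from 497 to 4595 counts in the libraries taken as colon and from 4678666 to 7108744 in those taken as blood, and Vil1, a brush border protein, ran from 52513 to 78736 against 0 to 16. Within the colon, all 8 inflammatory genes looked up (S100a8, S100a9, Lcn2, Il1b, Cxcl2, Saa3, Reg3b and Reg3g) peaked in mice 1, 7 and 9 (the 3 highest values of each gene), the first of which is labelled UC and the others control. Their summed normalized count was 1106030 in mouse 1, 134918 in mouse 7 and 91684 in mouse 9, against 214 to 383 in mice 2, 4 and 8. These values go against the disease labels, so groups are called "labelled UC" and "labelled control" throughout, each library is named by its mouse, and the libraries were not regrouped. No direction between labelled groups below can be read as an effect of DSS without that reservation. The total count per colon library ran from 69181049 to 103662306. Each labelled group holds 1 library from each of 3 mice.

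The 5 simple keratins were the keratins of these colons. On the authors' normalized scale, which is the gene count divided by 1 factor per library, they made up from 98.1% to 99.8% of all keratin counts in a library, and the 12 squamous members from 0.0773% to 0.122%. The sum over the simple keratins was between 820 and 1286 times that over the squamous ones, and between 869 and 1360 times when each gene was first divided by its exon length. Keratins in all took from 0.729% to 1.16% of the normalized counts of a library. The lowest simple keratin value in any library, 5784 for Krt7 in mouse 4, stood above the highest squamous value, 330.1 for Krt6b in mouse 7.

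**Figure D1:**
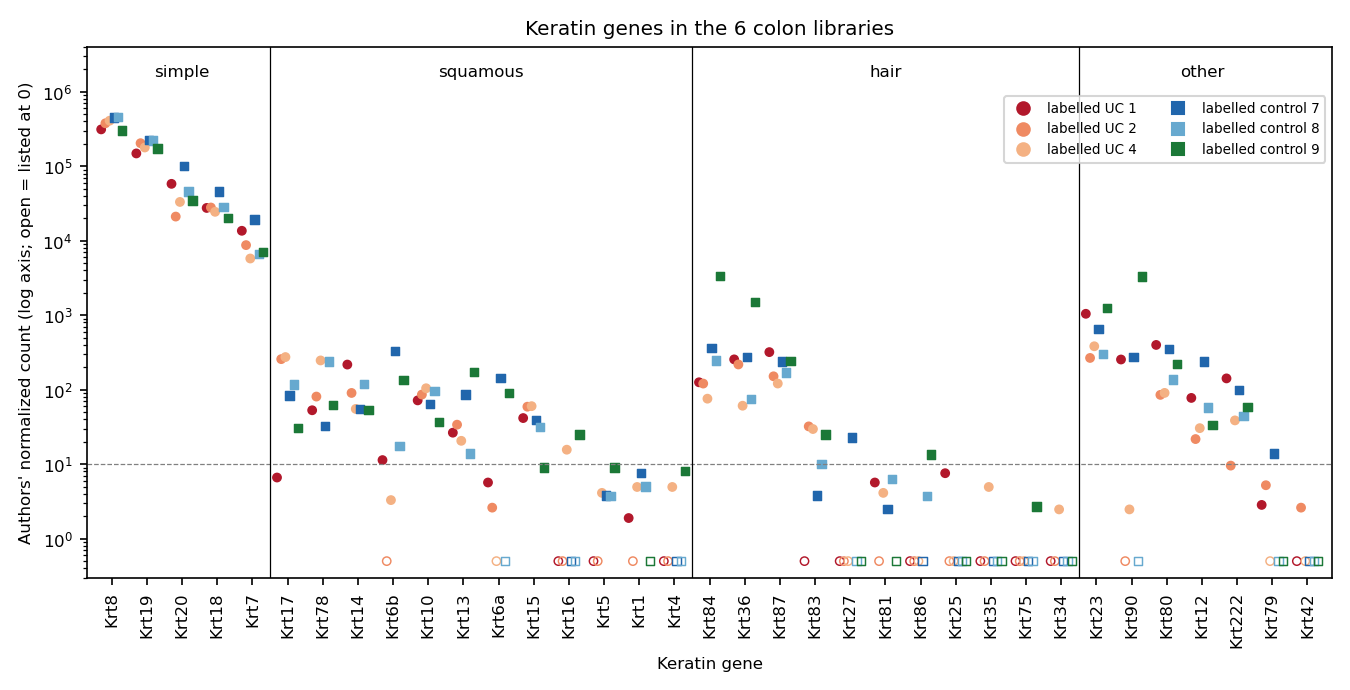
Authors' normalized count (log axis) of the 35 keratin genes in each of the 6 colon libraries, by list; circles are libraries labelled UC, squares libraries labelled control, open symbols libraries in which the gene is listed at 0, and the dashed line marks 10. The 5 simple keratins lie between 5784 and 463694, no squamous keratin passes 330.1, and Krt84, Krt36 and Krt90 have 1 library, that of mouse 9, far above the others.

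The promoters of the 3 simple keratins that the comparisons below return to are shown first, as 250 bases before to 50 after the RefSeq start of the gene, in GRCm38.p6, 5′ to 3′ on the gene's strand. Capitals mark a match to TATAAA, the core of the TATA box, on either strand. Krt8 is chr15:102004293-102004592 (minus), Krt18 is chr15:102027966-102028265 (plus) and Krt20 is chr11:99438104-99438403 (minus).
Krt8: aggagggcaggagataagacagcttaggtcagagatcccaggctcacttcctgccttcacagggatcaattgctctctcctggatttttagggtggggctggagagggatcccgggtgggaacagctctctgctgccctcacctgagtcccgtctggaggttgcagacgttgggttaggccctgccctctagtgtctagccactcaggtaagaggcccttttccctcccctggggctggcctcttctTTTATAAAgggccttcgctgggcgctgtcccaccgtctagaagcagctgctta
Krt18: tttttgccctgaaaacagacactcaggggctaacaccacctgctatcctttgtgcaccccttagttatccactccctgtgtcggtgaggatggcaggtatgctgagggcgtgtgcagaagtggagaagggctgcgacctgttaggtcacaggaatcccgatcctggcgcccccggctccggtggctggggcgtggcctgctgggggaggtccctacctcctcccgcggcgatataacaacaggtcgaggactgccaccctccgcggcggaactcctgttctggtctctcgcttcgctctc
Krt20: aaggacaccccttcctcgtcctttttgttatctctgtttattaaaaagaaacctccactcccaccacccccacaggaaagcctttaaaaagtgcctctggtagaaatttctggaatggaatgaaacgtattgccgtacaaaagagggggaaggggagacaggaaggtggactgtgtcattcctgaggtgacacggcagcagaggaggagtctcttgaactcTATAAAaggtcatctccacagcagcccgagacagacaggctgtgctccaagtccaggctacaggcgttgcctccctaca
Krt20 held TATAAA 29 bases before its start. In Krt8 the 8 capitals are a pair of overlapping matches, 1 on each strand, beginning 1 and 3 bases before the annotated start. Krt18 held none, and held 17 CpG dinucleotides against 6 in Krt8 and 6 in Krt20, with a median of 7 over all 32851 promoters of the table. Krt7, with 21, held the most of the keratin promoters found. The table gave 21 promoters for 20 of the 35 keratins. TATAAA stood in 9 of these 21 and in 13.6% of all promoters. TGANTCA, the site of AP-1 type factors and a sequence that reads almost the same on both strands, stood in 2 of the 21, both of Krt13, and in 7.81% of all. These are matches of letters in a window of fixed length, not sites shown to be used.

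Krt8, the one abundant type II chain, was the most abundant keratin in each library. Its normalized count was 313268 in mouse 1, 378188 in mouse 2 and 409913 in mouse 4 of the libraries labelled UC, and 453160 in mouse 7, 463694 in mouse 8 and 303492 in mouse 9 of those labelled control. The lowest value was that of mouse 9 and the next that of mouse 1, so the labelled groups overlapped and the whole spread was 1.53-fold. Reads of Krt8 can be shared with its pseudogene Krt8-ps, which was credited with 6618 to 9384 counts, against 330742 to 496956 for Krt8.

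Krt19, a type I chain that lacks most of the tail domain of other keratins, came next. It stood at 148903, 204456 and 178961 in mice 1, 2 and 4 and at 227726, 221809 and 173046 in mice 7, 8 and 9. It was as even as Krt8, with a 1.53-fold spread, and mice 1 and 9 were again the lowest. Krt18, the type I chain that pairs with Krt8 first in the embryo, stood at 27612, 27985 and 24498 in mice 1, 2 and 4 and at 45937, 28598 and 20394 in mice 7, 8 and 9. Here mouse 7 alone was high, 1.61 times the next library, and the other 5 lay between 20394 and 28598.

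Krt20, the keratin of mature surface colonocytes and goblet cells, was the most variable of the simple keratins. Its normalized counts were 58168, 21145 and 33245 in mice 1, 2 and 4 and 101608, 45693 and 34600 in mice 7, 8 and 9. Mouse 7 was the highest, mouse 1 second and mouse 2 the lowest, a 4.81-fold range that crossed the labels. Krt7, a type II chain of ducts and of the lining of the bladder, had the same 2 libraries on top, with 13626 in mouse 1 and 19377 in mouse 7 against 8751, 5784, 6693 and 7056 in mice 2, 4, 8 and 9. Its range was 3.35-fold. An antisense gene, Gm671, overlaps Krt7 and was credited with a mean of 58.4. The quantification set no library strand, so unspliced reads of the 2 cannot be told apart.

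Mice 1 and 7 also differed from the other colons in Muc2 and Cdx2, which were 2 of the 12 genes of simple epithelium looked up. Muc2, the mucus protein of goblet cells, stood at 1019390 in mouse 1 and 917317 in mouse 7 against 151064 to 242781 in the other 4 libraries. Cdx2, a transcription factor of the intestine, stood at 12701 and 11069 against 1216 to 3808. Lgals4 and Cdh1, the gut lectin and E-cadherin, did not follow, with 210112 and 213643 of Lgals4 in mice 1 and 7 in a range from 207363 to 276762, and 78047 and 90069 of Cdh1 in a range from 78047 to 118342. Slc26a3, of the same list, ran the other way, with 25107 in mouse 1, 35702 in mouse 7 and 27095 in mouse 9. It stood at 72441, 132812 and 128020 in mice 2, 4 and 8. Whether goblet cells or other cells of the lining have a part in the Krt20 and Krt7 values of these libraries was not tested.

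Dividing by exon length gives the simple keratins of a library per kilobase. The length used was that of all annotated exons of a gene joined. It was 7.049 kb for Krt7, against 1.437 to 1.958 kb for Krt8, Krt18, Krt19 and Krt20. Where the transcripts present are shorter than the joined exons, the value per kilobase is too low, so the Krt7 share depends on the annotation. Krt8 made up from 52.4% to 61.4% of the sum of the 5, Krt19 from 27.5% to 33.1%, Krt18 from 4.96% to 7.24%, Krt20 from 3.27% to 11.9% and Krt7 from 0.237% to 0.663%. The order of Krt8 over Krt19 held in all 6 libraries, and so did that of Krt19 over the remaining 3. Krt18 and Krt20 changed places: per kilobase Krt20 was 0.563 times Krt18 in mouse 2 and 1.65 times Krt18 in mouse 7. Krt8 exceeded its named partner Krt18 by 7.24 to 12.3 times per kilobase, and it exceeded Krt19 by 1.66 to 2.17 times. Summed over the 5, type II chains were 1.13 to 1.61 times type I chains. The 2 libraries nearest to even were mouse 7, at 1.13, and mouse 9, at 1.24, with mouse 1 beside them at 1.25, and mouse 4 was the farthest, at 1.61.

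**Figure D2:**
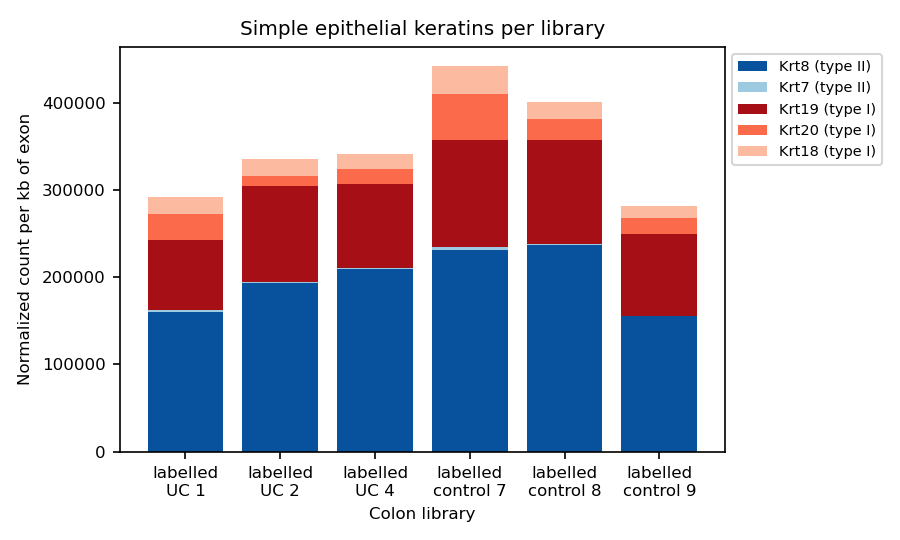
Stacked normalized count per kilobase of exon of the 5 simple keratins in each colon library; blues are type II chains and reds type I chains. Krt8 and Krt19 fill most of each bar, and the Krt20 layer is widest in mouse 7 (11.9% of the sum) and mouse 1 (10.4%).

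The squamous keratins were low beside the simple ones. Of the 17 squamous symbols in the count table, Krt2, Krt9, Krt24, Krt76 and Krt77 had no count in any colon library. Krt1, Krt4, Krt5 and Krt16 had means under 10 normalized counts, and the other 8 had means from 40.1 (Krt15) to 128.4 (Krt17). Their share of all keratin counts averaged 0.0981% ± 0.0223 (SD, n = 3) in the libraries labelled UC and 0.0995% ± 0.0157 (SD, n = 3) in those labelled control, a difference below the SD of either group.

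In the basal, mucosal and epidermal pairs of stratified epithelium the type II chain was far below its type I partner or listed at 0. Krt5, the basal type II chain, was listed at 0 in mice 1 and 2 and reached 4.12 in mouse 4, 3.79 in mouse 7, 3.78 in mouse 8 and 8.998 in mouse 9. Its partner Krt14 stood at 218, 90.6 and 55.3 in mice 1, 2 and 4 and at 55.6, 118 and 54.0 in mice 7, 8 and 9. Per kilobase Krt5 was therefore at most 0.133 times Krt14, in mouse 9, and 0 times in mice 1 and 2. Krt4, the mucosal type II chain, was listed at 0 in 4 libraries and stood at 4.95 in mouse 4 and 8.10 in mouse 9, while its partner Krt13 stood at 26.5, 34.0, 20.6, 86.0, 13.9 and 172 in mice 1, 2, 4, 7, 8 and 9. Krt1, the epidermal type II chain, did not pass 7.59, and its partner Krt10 ran from 36.9 in mouse 9 to 105 in mouse 4. Krt1 was at most 0.0563 times Krt10 per kilobase, where the joined exons measured 4.415 kb for Krt1 and 2.114 kb for Krt10. Krt10 is overlapped by the antisense gene Gm11940, with a mean of 16.3, from which unspliced reads cannot be separated.

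The wound keratins differed between single libraries. Krt6b was measured at 11.4, 0 and 3.30 in the libraries labelled UC and at 330.1 (mouse 7), 17.6 (mouse 8) and 135 (mouse 9) in those labelled control. Krt6a stood at 5.68, 2.61 and 0 in the first 3 and at 144, 0 and 89.98 in the last 3. Mice 7 and 9 were thus the high libraries for both, and the close likeness of the 2 genes means that reads can be credited to either. Krt16, which pairs with them, was listed at 0 in mouse 7 and stood at 15.7 in mouse 4 and 25.2 in mouse 9. Unlike the type II chains of the pairs above, Krt6a was 2.31 times Krt16 per kilobase in mouse 9. In mouse 7 Krt6a stood at 144 with Krt16 at 0, and in mouse 4 Krt6a was at 0. Krt17 took another course: 6.63 in mouse 1, 258 in mouse 2, 275 in mouse 4, 83.5 in mouse 7, 117 in mouse 8 and 30.6 in mouse 9. Its 3 lowest values were those of mice 1, 7 and 9, and those mice held the 3 highest values of the inflammatory genes.

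Krt78 and Krt15 were the remaining squamous members with a mean of at least 10. Krt78 stood at 53.0, 81.0 and 247 in mice 1, 2 and 4 and at 32.9, 239 and 63.0 in mice 7, 8 and 9, so that 1 library of each label was high. Krt15, a chain of basal and stem cells, stood at 41.7, 59.2 and 60.2 in the libraries labelled UC and at 39.2, 31.5 and 8.998 in those labelled control, with no overlap.

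Other genes of squamous epithelium were uneven. Of the 17 looked up, 15 were in the colon table, and their summed normalized count ran from 14244 in mouse 4 to 22566 in mouse 9. Serpinb5, a serpin also made by other epithelia, and Sfn, the 14-3-3 sigma protein, carried most of that sum with means of 6214 and 8447. The genes that define the lineage were low: Trp63, the transcription factor of basal cells, ran from 0 in mouse 8 to 31.6 in mouse 7, and Ivl, the cornified envelope protein involucrin, had no count in the colon. Dsg3, the desmosomal cadherin of stratified epithelium, was listed at 0 in mice 2 and 4, stood at 7.56 in mouse 8, 48.3 in mouse 1 and 158 in mouse 7, and reached 487 in mouse 9. Mice 7 and 9, the libraries with the higher Krt6a and Krt6b, were thus also those with the higher Dsg3. Pkp1, a desmosomal plaque protein of stratified epithelium, ran the other way, with 3287, 2479 and 2594 in mice 2, 4 and 8 against 1102 in mouse 1, 1193 in mouse 7 and 2178 in mouse 9. Of the 15 in the colon table, 4 (Trp63, Dsg3, Ly6d and Tgm1) had their 3 highest values in mice 1, 7 and 9. Over all genes with a mean of at least 10 normalized counts this held for 18.3%, and 5 of the 15 had lower means. Ly6d and Tgm1 were lower in the colon than in the blood (log2FC -3.50, padj = 0.00105, and -3.03, padj = 0.0450, in edgeR). They are therefore not particular to squamous epithelium here. Dsg3 had no blood count, and Trp63 was not called between the tissues (padj = 0.266 in edgeR). Trp63 stood at 12.6 in mouse 9, close to 11.5 in mouse 4. Dsg3 and Pkp1 were singled out after their values were seen. The part of squamous epithelium in the keratin values was not tested.

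The keratins of hair, nail and tongue papilla summed to more than the squamous ones in mice 1, 7 and 9, and in mouse 9 they reached 0.934% of all keratin counts, against 0.0458% to 0.127% in the other 5 libraries. Krt84, a type II chain of nail and tongue papilla, was measured at 126, 121 and 75.9 in the libraries labelled UC and at 364 (mouse 7), 246 (mouse 8) and 3340 (mouse 9) in those labelled control. The labelled groups did not overlap, and mouse 9 stood at 9.17 times the next library. Krt36, a type I chain of hair and tongue papilla, stood at 256, 219 and 61.0 in the libraries labelled UC and at 273, 74.4 and 1508 in those labelled control. Mouse 9 was 5.52 times the next, and with or without it the labelled groups overlapped. Per kilobase Krt84 was 0.312 times Krt36 in mouse 1 and 2.09 times Krt36 in mouse 8.

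Krt90, a type II gene between Krt84 and Krt75 on chromosome 15, shared the peak in mouse 9 but not the order of the other libraries. It was listed at 0 in mice 2 and 8, stood at 2.47 in mouse 4, 255 in mouse 1 and 276 in mouse 7, and reached 3306 in mouse 9, which was 11.99 times the next library. Its 3 highest libraries were thus mice 1, 7 and 9, as for the inflammatory genes. The promoters of these 3 genes are shown because mouse 9 stood apart in each, a choice made after their values were seen. Krt84 is chr15:101532771-101533070, Krt36 is chr11:100105577-100105876 and Krt90 is chr15:101562901-101563200, all on the minus strand, and capitals again mark TATAAA.
Krt84: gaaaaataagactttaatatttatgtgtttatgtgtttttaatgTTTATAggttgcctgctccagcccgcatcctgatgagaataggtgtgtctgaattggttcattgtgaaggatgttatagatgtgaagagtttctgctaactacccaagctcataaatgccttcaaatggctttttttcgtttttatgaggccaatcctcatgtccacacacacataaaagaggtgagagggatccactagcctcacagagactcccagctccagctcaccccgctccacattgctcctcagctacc
Krt36: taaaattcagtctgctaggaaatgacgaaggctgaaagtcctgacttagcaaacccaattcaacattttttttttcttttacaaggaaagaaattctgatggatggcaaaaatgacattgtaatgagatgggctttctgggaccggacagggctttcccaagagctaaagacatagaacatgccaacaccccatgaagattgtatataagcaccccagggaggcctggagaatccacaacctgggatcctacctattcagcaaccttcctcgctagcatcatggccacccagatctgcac
Krt90: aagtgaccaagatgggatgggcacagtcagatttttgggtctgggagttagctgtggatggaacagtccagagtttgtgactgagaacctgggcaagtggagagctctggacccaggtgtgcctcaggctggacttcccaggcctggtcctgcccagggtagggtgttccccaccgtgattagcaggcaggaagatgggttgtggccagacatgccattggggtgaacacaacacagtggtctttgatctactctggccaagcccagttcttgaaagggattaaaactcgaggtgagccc
The 1 match, in Krt84, lies on the opposite strand, 206 bases before the start, and no match was found in the windows of Krt36 and Krt90. All 3 were poor in CpG, with 3, 3 and 2. Genes of the hair follicle were low: of 5 looked up, Msx2, Krtap4-7 and Hoxc13 had no count in the colon. Tchh ran from 31.5 in mouse 9 to 68.2 in mouse 1. Krtap3-1, a hair keratin-associated protein, ran from 0 in mouse 8 to 21.6 in mouse 9, with a mean of 9.66. Its 3 highest values were in mice 1, 7 and 9, but mouse 7, at 7.59, was nearly even with mouse 4, at 7.42. The remaining hair keratins were Krt87, which stood at 320, 152 and 121 in mice 1, 2 and 4 and at 239, 170 and 241 in mice 7, 8 and 9, Krt83 with a mean of 16.8, and 7 genes with means under 10. Hair keratins of the Krt81 to Krt87 group are close copies of each other, so the split of counts among them is uncertain.

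Of the 7 other members, Krt23 and Krt80 had means over 100 beside Krt90. Krt23, a type I chain of simple epithelia, stood at 1047 in mouse 1, 267 in mouse 2, 384 in mouse 4, 647 in mouse 7, 301 in mouse 8 and 1258 in mouse 9. Krt80, a type II chain found in many epithelia, stood at 400, 85.3, 90.7, 354, 137 and 223 in the same order. In both genes the 3 highest libraries were mice 1, 7 and 9. Krt12, the keratin of the corneal surface, was highest in mouse 7 with 239 and lay between 21.8 and 77.7 elsewhere. Krt222 ran from 9.58 in mouse 2 to 142 in mouse 1, Krt79 did not pass 13.9 and Krt42 had a count in 1 library only.

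**Figure D3:**
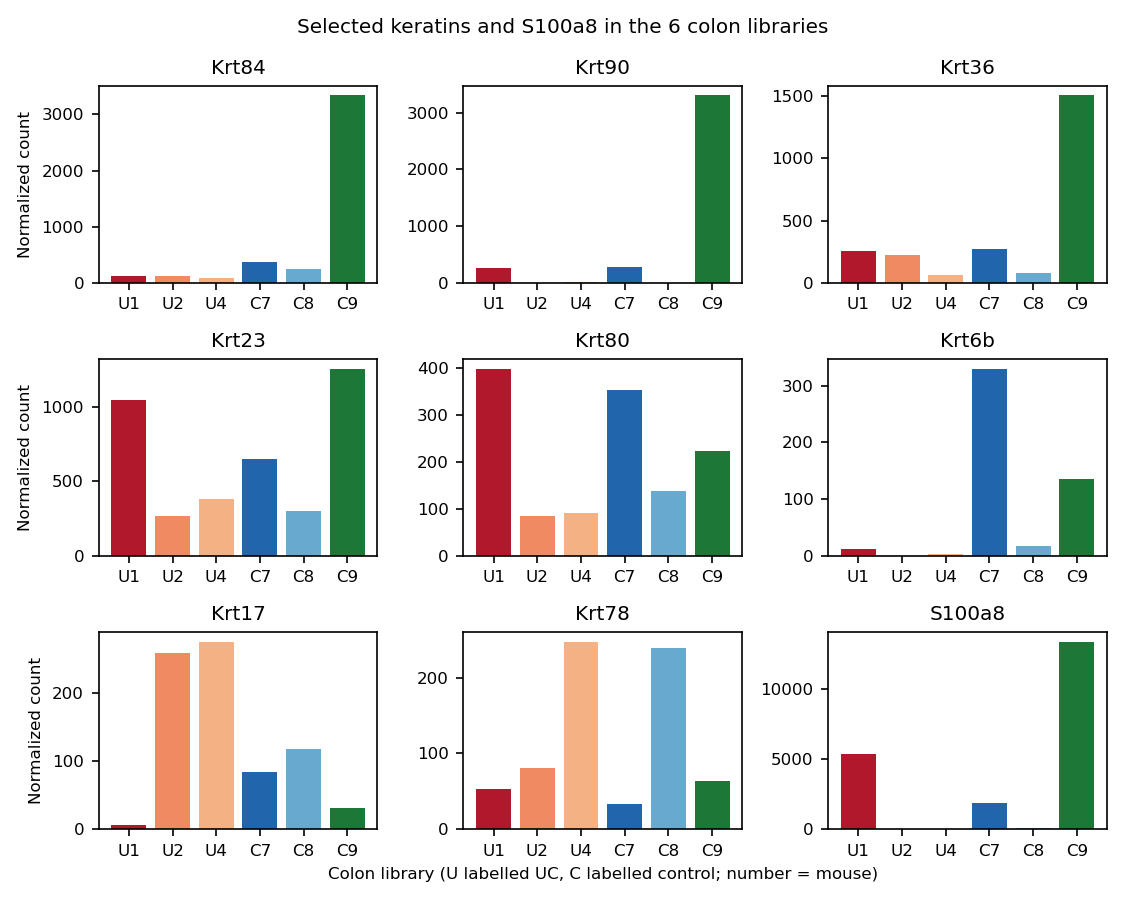
Authors' normalized count (linear axis from 0) of 8 keratins and of the inflammatory gene S100a8 in each colon library, where U is labelled UC, C labelled control and the number the mouse. Krt84, Krt90 and Krt36 peak in C9 (3340, 3306 and 1508), Krt6b in C7 (330.1), and S100a8 is high in U1, C7 and C9.

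Counted over the members with a mean of at least 10, 7 of 22 keratins (Krt6a, Krt23, Krt36, Krt80, Krt87, Krt90 and Krt222) had their 3 highest libraries in mice 1, 7 and 9, or 31.8%, against 18.3% of 22123 genes with such a mean. None of the 7 was a simple keratin. Krt10, Krt17 and Krt78 had theirs in mice 2, 4 and 8, or 13.6% against 14.7% of all genes. These shares describe the libraries, and no test was made on them because the 3 mice are not a labelled group.

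The study compared UC with control colon using DESeq2. Here labelled UC was compared with labelled control by edgeR's quasi-likelihood test on the deposited counts, grouped by the labels, with Benjamini-Hochberg adjustment over all genes tested. Significantly differentially expressed (SDE) genes had an adjusted p (padj) no higher than 0.05 with an absolute log2FC above 1. None of the 21 keratins that passed the filter on low counts was SDE, where 1 of 22238 genes, or 0.0045%, was, and DESeq2 and limma-voom called no keratin either. At an unadjusted p under 0.05 there were 2 keratins, Krt84 and Krt6b, where 1.41% of all genes passed. The labelled groups did not overlap in 3 of the 21, namely Krt84, Krt6b and Krt15, where 5.41% of all genes had none. These small counts over members that passed a filter are a description and show nothing particular to keratins.

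The simple keratins leaned one way by little. All 5 had log2FC below 0 with edgeR, from -0.17 (Krt8) through -0.24 (Krt19), -0.25 (Krt7) and -0.26 (Krt18) to -0.71 (Krt20), and their median was -0.25 against -0.0069 over all genes. Each interval covered 0: at 95% Krt8 ran from -0.68 to 0.35 and Krt20 from -1.74 to 0.32, and padj was 0.9999 in edgeR for each. The direction of Krt7 and Krt18 rested on mouse 7, since without it their log2FC were 0.44 and 0.11, and that of Krt20 shrank to -0.11. The intervals of Krt8 and Krt19 lay within 2-fold either way, and those of Krt20 and Krt7 reached past a 2-fold fall. They exclude no change of that size, because they rest on labels that the inflammatory genes go against. The normal interval is also narrow for 3 libraries a group. That of Krt13 left out 0 (-3.37 to -0.12) at an unadjusted p of 0.0771 in edgeR.

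Among the squamous keratins 5 of the 7 tested had a positive log2FC and 2 a negative one, with a median of 0.39. Krt6a did not pass the filter on low counts, and its mean normalized count was 2.77 in labelled UC and 78.0 in labelled control. The sum over all squamous members averaged 615 ± 180 (SD, n = 3) in labelled UC and 708 ± 121 (SD, n = 3) in labelled control. Krt6b had the largest difference, a log2FC of -5.04 (SE 1.47, padj = 0.9999 in edgeR), lower in each library labelled UC than in any labelled control. Leaving out each mouse in turn gave -6.50 to -3.95. Krt15 had a log2FC of 1.00 (SE 0.603, padj = 0.9999 in edgeR), and Krt13 one of -1.74 (SE 0.831, padj = 0.9999), which became -0.91 without mouse 9. Krt84 had a log2FC of -3.61 (SE 1.06, padj = 0.9999 in edgeR). Mouse 9 carried most of it: without that library the log2FC was -1.53. For Krt90 it changed from -3.79 to -0.72 and for Krt36 from -1.79 to 0.0085 in the same way. With DESeq2, padj was 0.131 for Krt84 and 0.159 for Krt6b. The 5 tested members outside these lists all had negative log2FC, from -0.097 (Krt222) to -3.79 (Krt90), and none reached an unadjusted p under 0.05.

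Genes that accompany keratins were not SDE between the labelled groups either. The 10 desmosome and linker genes, which tie keratin filaments to cell junctions, and the 12 genes of simple epithelium were all tested in the colon, and none of them was SDE in edgeR or had an unadjusted p under 0.05. Of the 17 squamous partners 11 were tested, and none was SDE or had an unadjusted p under 0.05. The 8 other intermediate filament genes held 1 gene with an unadjusted p under 0.05 and none that was SDE. The mesothelial list, which covers cells of the serosa that also make simple keratins, summed to 3348 in mouse 1 and 1322 in mouse 9 against 54.9 to 273 in the other 4 libraries, led by Msln, the surface protein mesothelin, with 1309 in mouse 1 and 1053 in mouse 9. The urothelial list ran from 410 in mouse 9 to 1844 in mouse 1, and Upk1a, the gene of the list with the highest mean, from 199 in mouse 9 to 875 in mouse 4. The sum in mouse 1 rested on Upk3b, at 1006, a gene that both lists hold. Upk2, which defines urothelium, had no count in the colon. The part of either cell type in the keratin values was not tested.

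In the blood 4 keratins passed the filter (Krt7, Krt80, Krt86 and Krt222), and none was SDE between the labelled groups in edgeR, as were 0% of 16759 genes. No keratin had an unadjusted p under 0.05, against 1.44% of all genes, and in none were the labelled groups apart, against 6.5%. DESeq2 and limma-voom called none either. The log2FC ran from -0.28 (Krt7) to 1.20 (Krt86), and that of Krt86 was 0.075 without mouse 1.

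The colon was set against the blood to ask which of these genes a tissue without epithelium lacks. In a fit of all 12 libraries with edgeR, 22 keratins were tested, of which 18 were called higher in the colon, where 37.7% of 23258 genes were, and 3 were called lower, where 20.8% were. The 18 were all 5 simple keratins, all 7 squamous ones tested, Krt36, Krt84 and Krt87 of the hair keratins, and Krt12, Krt23 and Krt90. The tissues differ in nearly everything, and TMM factors between them ran from 0.347 to 2.32, so the background is high. Per the study's methods, colon and blood RNA were also extracted with different kits. Ribosomal RNA was removed with a Ribo-Zero kit in the colon and a Globin-Zero kit in the blood. Tissue and preparation therefore cannot be told apart. The median log2FC of the 22 was 8.66 against 0.46 over all genes. For 10 of the 22 the blood held no count at all, and with these at the lower bound set by 3 counts per blood library the median was 4.92. Those 10 passed the filter on low counts through the colon alone, and all 22 were members of the colon table. The direction of those 10 was set before the test, so the 18 describe the tissues and show nothing particular to keratins.

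Among the simple keratins the blood differed by gene. Krt20 had no count in any blood library, which makes the colon at least 4965-fold higher. Krt18 had 6 counts in mouse 4 and 6 in mouse 7 and none in the other 4 blood libraries, for a log2FC of 12.17 (SE 0.740, padj = 1.77e-07 in edgeR). Krt8 had 3, 50, 0, 0, 8 and 88 counts and Krt19 had 6, 32, 0, 0, 0 and 58 counts in the blood of mice 1, 2, 4, 7, 8 and 9, so both were seen mainly in mice 2 and 9. Krt7 was the exception, with 80, 32, 74, 94, 48 and 129 counts in the same order, present in each blood library, and its log2FC of 5.46 (SE 0.401, padj = 6.08e-07 in edgeR) was the smallest of the 5. In CPM, scaled by TMM over all 12 libraries, Krt7 averaged 57.0 ± 30.5 (SD, n = 6) in the colon and 1.29 ± 0.402 (SD, n = 6) in the blood.

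The squamous and hair keratins called higher rested on low levels in the colon. In CPM, Krt17 averaged 0.707 in the colon and Krt78 0.660, with no blood count, which makes them at least 12.8-fold and 11.95-fold higher. Krt23 was at least 65.5-fold and Krt84 at least 71.6-fold higher by the same rule. Krt15 had 14 counts in the blood of mouse 2 and none elsewhere, and its call (padj = 0.0271 in edgeR) was lost without mouse 7, 8 or 9, where padj was 0.0833, 0.0599 and 0.0511. The call for Krt90 (padj = 0.0288 in edgeR) was lost without mouse 1, 4, 7 or 9, where padj was 0.189, 0.0529, 0.0629 and 0.0792, and in limma-voom, where it was 0.215.

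The 3 keratins called lower in the colon were Krt80, Krt86 and Krt222. Krt80 had 809, 230, 505, 737, 336 and 456 counts in the blood of mice 1, 2, 4, 7, 8 and 9 and averaged 8.91 ± 3.62 CPM (SD, n = 6) there, against 1.20 ± 0.765 (SD, n = 6) in the colon. Each blood library stood above each colon library, and the log2FC was -2.90 (SE 0.466, padj = 2.09e-04 in edgeR). An antisense gene, Gm35853, overlaps Krt80, and unspliced reads of the 2 cannot be separated without strand. Krt86, a hair keratin, had 131, 3, 65, 18, 24 and 53 counts in the blood and counts in 2 colon libraries only, for a log2FC of -7.04 (SE 1.17, padj = 5.18e-04 in edgeR). Krt222 had 33 to 87 counts in the blood and a log2FC of -1.64 (SE 0.538, padj = 0.0176 in edgeR), a call that was lost without mouse 4, 8 or 9, where padj was 0.0668, 0.0523 and 0.0747. Krt83 was not called either way (log2FC -0.25, SE 1.296, padj = 0.874 in edgeR).

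**Figure D4:**
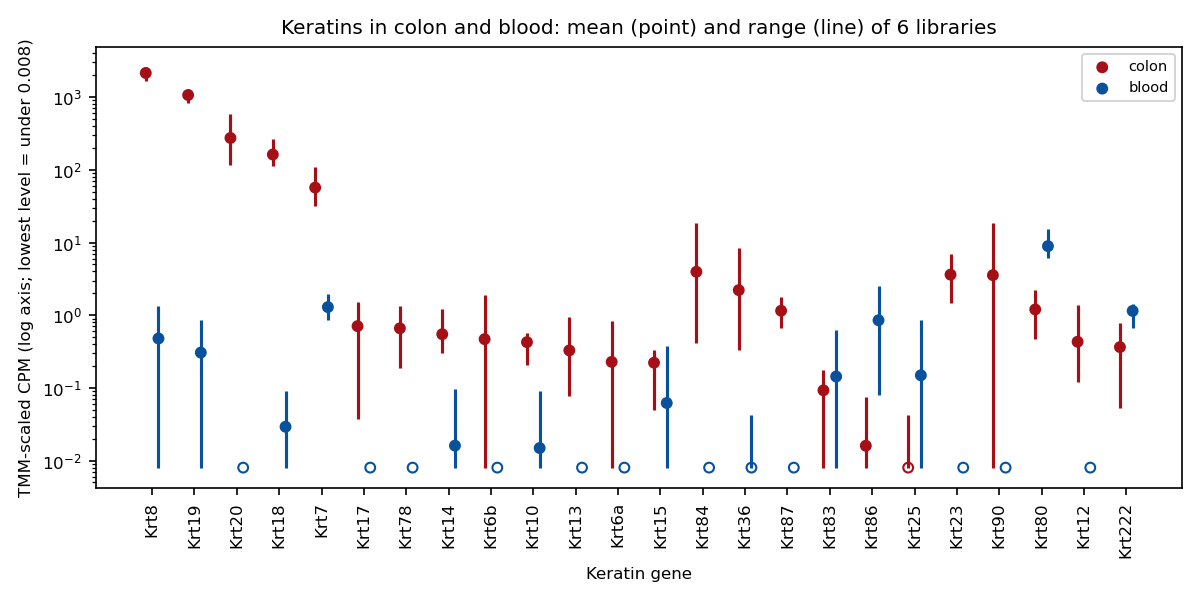
TMM-scaled CPM (log axis) of keratins with a mean over 0.1 in either tissue, as the mean (point) and the range (line) of the 6 colon and the 6 blood libraries; open circles mark means under 0.008. The 5 simple keratins stand far above their blood values, and 5 of the keratins shown (Krt25, Krt80, Krt83, Krt86 and Krt222) have the higher mean in the blood.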

How the data were processed

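Total RNA of colon and whole blood was sequenced from 6 mice. Per the study's methods and the labels, the authors trimmed reads with Flexbar, removed ribosomal reads with bbduk, mapped with STAR to GRCm38 and ran StringTie 1.3.4c on Ensembl 92 with default options, which set no strand. The deposited counts are whole numbers that the authors derived from transcript coverage. The deposited normalized tables are a signal scale, the count divided by 1 factor per library (0.791 to 1.21 in the colon). Groups follow the disease and tissue characteristics in the labels. The members and lists were chosen with earlier results of these data known.

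The tests ran in edgeR 4.0.16 under R 4.3.3 (TMM, filterByExpr, glmQLFit, glmQLFTest), each tissue alone as in the study and all 12 libraries for colon against blood, with Benjamini-Hochberg adjustment over all genes. SE was taken as log2FC over the root of the F value, and a 95% interval is the normal one from that SE. Exon lengths and coordinates came from GENCODE vM21 and promoters from RefSeq (GRCm38.p6). An exon length is that of all annotated exons of the gene joined. The steps were tested on simulated data.

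Simple and squamous keratins with a mean of at least 10 normalized counts, other keratins with at least 100, and each keratin called were named, with a few genes of the partner lists. Other members were named from counts of 5 or fewer, or after their values were seen. Colon and blood came from the same 6 mice under the same numbers. After subtracting each labelled group's mean, libraries of one number correlated at r of 0.0048 to 0.227 across 15802 genes, over 0.1 in 3 of 6, and genes are not independent replicates. Alternatives were RLE factors, other filters, DESeq2 1.42.0, limma-voom 3.58.1, the adjusted p alone, the mouse as a block, other bases for the squamous share, TMM-scaled CPM for the group ratios, and each mouse left out. Intervals and floors cover counting error or the spread of these mice only.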

Additional observations from a re-analysis of the deposited data

How the results depend on the processing

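No keratin was called between labelled groups, in colon or blood, under any alternative run, while over all genes the colon gave 1 SDE gene with edgeR, 6 with DESeq2 and 0 with limma-voom, and the blood gave 0, 6 and 0. Between colon and blood 16 to 19 keratins were called higher and 2 to 3 lower. With a replicate block for the mouse 18 were higher and 3 lower, and no call changed. The squamous share of keratin counts rested on the list. With Krt5, Krt14, Krt15, Krt4 and Krt13 only, it was 0.0338% in the libraries labelled UC and 0.0298% in those labelled control. Fewer genes were summed, and Krt78, a mucosal chain with a mean of 119.5, was among those left out. Leaving out each mouse turned the sign of some differences that were not called. In the colon their log2FC ranged from -0.075 to 1.14 for Krt14, from -1.45 to 0.083 for Krt80, from -0.68 to 0.11 for Krt87, from -0.75 to 1.40 for Krt78, from -0.62 to 0.44 for Krt7, from -0.51 to 0.11 for Krt18, from -1.18 to 0.22 for Krt23, from -2.31 to 0.0085 for Krt36 and from -1.48 to 0.41 for Krt222. In the blood they ranged from -0.22 to 0.51 for Krt80 and from -0.51 to 0.014 for Krt7. With 3 libraries a group and labels that the inflammatory genes go against, no absence of change can be read from these comparisons, and squamous keratins under 10 normalized counts are limited by depth.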
